A study of Rattus norvegicus with 48 samples.

Results

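Spata48, Akr1b8 and Ddit4l2 are 3 little-studied rat genes, taken by symbol from a table of 30211 genes and chosen by their CPM, which was higher in cultures given 4-octyl itaconate (4OI) than in cultures without it. Their levels with 4OI are therefore given as a description with no test, and tests are kept for comparisons without 4OI. The libraries came from primary cortical cultures of Sprague-Dawley rat fetuses at gestational day 18, treated after 21 days in vitro. There were 16 groups of 3 libraries. The Control, Cocaine (25 µM, 24 h), Tat (6 ng/mL of the HIV-1 protein Tat, 48 h) and Tat-Cocaine groups had no other compound. Amlexanox (25 µM), Tazemetostat (3 µM), Senicapoc (1 µM) and 4OI (250 µM) were each given alone, with Tat and with Tat-Cocaine. Amlexanox inhibits the kinases TBK1 and IKK-epsilon, tazemetostat inhibits the histone methyltransferase EZH2, and senicapoc blocks the potassium channel KCa3.1. The labels call the cells neurons, but markers of astrocytes, microglia and oligodendrocyte lineage cells were also present, so each value is a mean over a mixture, in which fewer cells of a type and less RNA per cell cannot be told apart. Nothing states that the 3 libraries of a group came from separate dissections, so p-values measure only the spread between these libraries.

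Itaconate is made by immune cells from cis-aconitate through the enzyme Acod1, and 4OI is an ester form that enters cells. Esters of this kind modify cysteines of Keap1, which frees the transcription factor Nrf2 to raise genes of glutathione synthesis and detoxification. Akr1b8 belongs to the aldo-keto reductases, enzymes that reduce aldehydes and ketones with NADPH. Ddit4l2 carries the name of the Ddit4 family, whose best known member Ddit4 (REDD1) holds back the growth kinase complex mTORC1. Spata48 is named as a spermatogenesis-associated gene.

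CPM are read counts scaled to library size, here by the study with trimmed mean of M-values. A library held 17.5 to 29.1 M reads as recovered from the steps between low values, so that 1 read was worth 0.0334 to 0.0583 CPM. Spata48 lay near that limit outside the 4OI cultures, whereas Ddit4l2 was well above it in every library.

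The start regions of the genes are shown because the members were chosen for a higher CPM with 4OI. RefSeq (GRCr8) gives the 250 bases before the start site for 2 of the 3 genes, and Spata48 is listed there as Spmip7. On the plus strand of chromosome 14 the Spata48 stretch is chr14:90243837-90244086, and that of Akr1b8 on the plus strand of chromosome 4 is chr4:63964171-63964420. Capitals mark a GC box (GGGCGG).
Spata48: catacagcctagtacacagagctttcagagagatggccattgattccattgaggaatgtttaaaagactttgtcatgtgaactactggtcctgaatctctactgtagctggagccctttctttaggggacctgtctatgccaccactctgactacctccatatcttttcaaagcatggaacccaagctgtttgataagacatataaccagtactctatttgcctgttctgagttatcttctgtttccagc
Akr1b8: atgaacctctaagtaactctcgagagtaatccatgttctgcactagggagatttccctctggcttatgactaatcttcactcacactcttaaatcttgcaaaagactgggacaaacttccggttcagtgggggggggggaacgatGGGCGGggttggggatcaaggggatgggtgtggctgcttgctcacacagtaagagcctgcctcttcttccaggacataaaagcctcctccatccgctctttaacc
The GC box of Akr1b8 was chosen after the sequence was seen, and 32.12% of 27457 promoters of the same length hold one on either strand. Neither stretch held the antioxidant response element core TGACNNNGC (in 10.18% of promoters), the C/EBP-ATF element TTGCATCA (0.6556%), the AP-1 site TGANTCA (6.406%) or the TATA box TATAAA (13.18%) on either strand, which says only that these letters are not in these windows.

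Spata48 went from a few reads to a clear signal with 4OI. The 4OI libraries held 5.15, 1.98 and 8.21 CPM, against 0.153, 0.147 and 0.227 CPM in Control. With Tat-4OI the values were 3.10, 5.65 and 3.94 CPM, against 0.304, 0.138 and 0.0473 CPM with Tat. With Tat-Cocaine-4OI they were 5.76, 3.67 and 4.06 CPM, against 0.128, 0.327 and 0.0805 CPM with Tat-Cocaine. The 9 libraries with 4OI thus lay above all 39 others, which spanned 0.0458 to 0.517 CPM, or 1 to 14 reads. How many of all genes separate in this way was not counted, and the gene was chosen for these levels. The ratio of means was 29.1 without Tat, 25.9 with Tat and 25.2 with Tat-Cocaine. On the log2(CPM + 0.5) scale, which understates changes of low genes, the differences were 2.88, 2.82 and 2.88 (SE 0.257 each). The gene passed the minimum level for testing through its 4OI libraries, since 1 of the 39 others reached 0.5 CPM. Its differences among the groups without 4OI are therefore not given as tests. The group means there ran from 0.0994 CPM in Tat-Cocaine-Senicapoc to 0.422 CPM in Senicapoc.

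**Figure D1:**
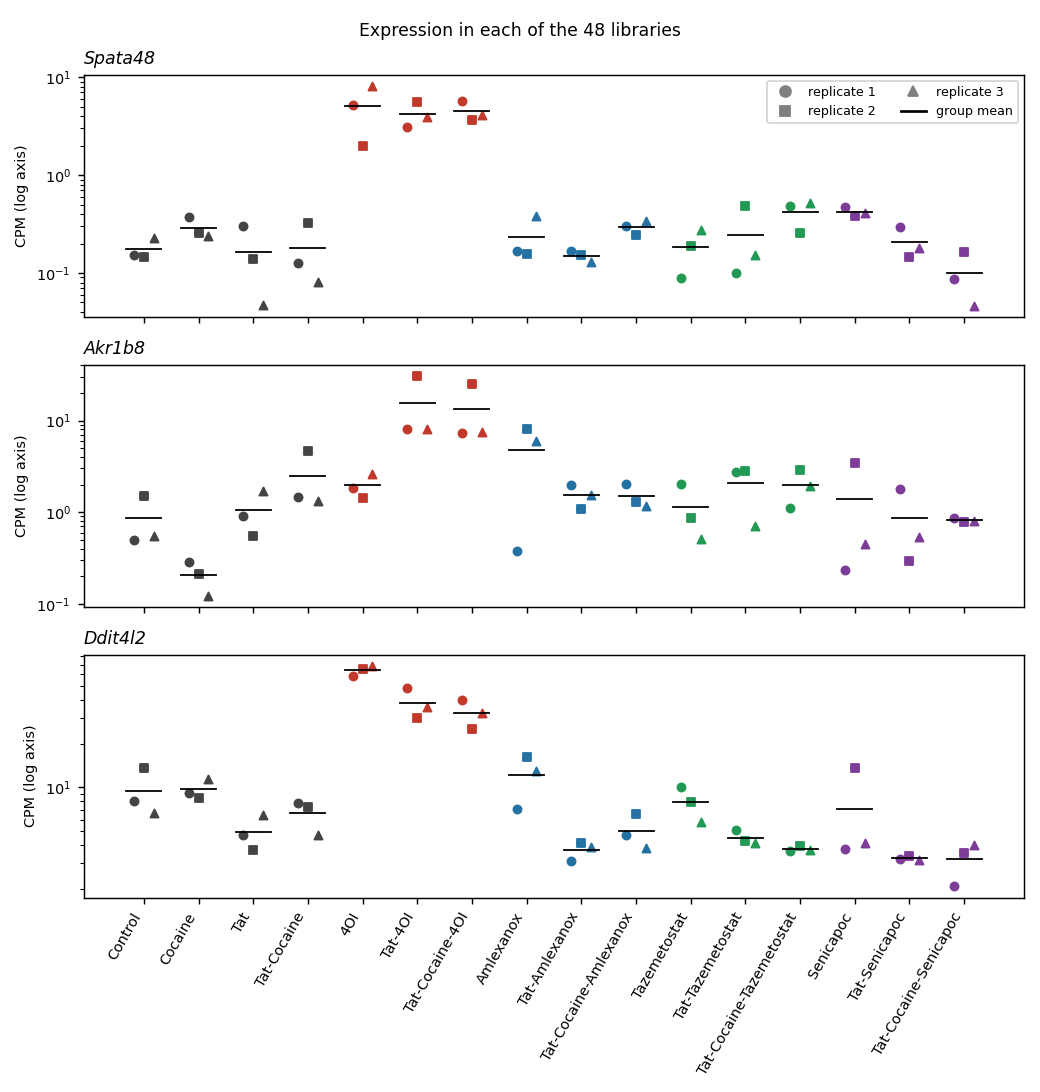
CPM on a log axis of Spata48, Akr1b8 and Ddit4l2 in each of the 48 libraries, by group, with symbols for the replicate number and a line at the group mean. The 9 libraries with 4OI are above the other 39 for Spata48 and Ddit4l2, while for Akr1b8 the 4OI group without Tat overlaps Control. The genes were chosen for higher CPM with 4OI.

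Akr1b8 did not share that pattern in full. The 4OI libraries held 1.84, 1.42 and 2.63 CPM and the Control libraries 0.498, 1.52 and 0.545 CPM, so these groups overlapped (log2 difference 0.91, SE 0.646). With Tat-4OI the values were 8.03, 30.9 and 8.03 CPM, against 0.913, 0.552 and 1.70 CPM with Tat. With Tat-Cocaine-4OI they were 7.30, 25.2 and 7.48 CPM, against 1.45, 4.67 and 1.33 CPM with Tat-Cocaine. Both comparisons beside Tat were without overlap, with ratios of means of 14.8 and 5.37 and log2 differences of 3.15 and 2.15 (SE 0.646 each). How many of all genes lack overlap there was not counted. The log2 difference with 4OI was 2.24 (SE 0.914) larger beside Tat than without it, given as a description because the same libraries chose the gene.

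Replicate 2 was the highest Akr1b8 library in both Tat groups with 4OI. The summed CPM of 14 microglia and macrophage markers was highest in the same libraries, at 1655, 2463 and 1121 in Tat-4OI and at 774, 2274 and 910 in Tat-Cocaine-4OI. In 4OI alone the microglia sum was again highest in replicate 2 (1218, 2855 and 1323), where Akr1b8 was lowest. The summed CPM of fibroblast and vessel markers was also highest in replicate 2 of Tat-4OI (83.5, 162 and 78.3) and of Tat-Cocaine-4OI (85.1, 346 and 119). In 4OI alone that sum was lowest in replicate 2 (91.6, 78.9 and 115). Neuron, astrocyte and oligodendrocyte lineage sums were each lowest in replicate 2 of both Tat groups with 4OI. Compared with Tat, 4 of the 14 markers fell in Tat-4OI and 10 did not pass the test, where 9.48% of all genes were lower, and none of the 14 was at 0 in all libraries of a group. Replicate 2 went the other way in the Tat and Tat-Cocaine references, but not in Control. In Control it had both the highest microglia sum (2030, 3709 and 2100) and the highest Akr1b8 (0.498, 1.52 and 0.545 CPM). Replicate 2 of Tat had the highest microglia sum (2596, 4663 and 3415) and the lowest Akr1b8. Replicate 2 of Tat-Cocaine had the lowest microglia sum (3548, 2141 and 3083) and the highest Akr1b8. The part of any of these cell types in the level of Akr1b8 was not tested.

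**Figure D2:**
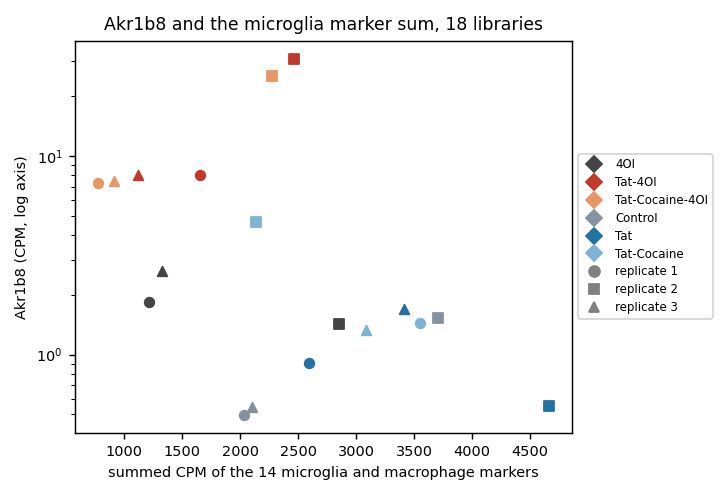
Akr1b8 (CPM, log axis) against the summed CPM of the 14 microglia and macrophage markers in the 18 libraries of the 4OI groups and their references, with colours for groups and symbols for replicate numbers. Replicate 2 of Tat-4OI and of Tat-Cocaine-4OI lie highest, at 30.9 and 25.2 CPM.

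Ddit4l2 was the most abundant of the members by CPM, a scale that is not corrected for gene length. The 4OI libraries held 58.4, 65.3 and 68.6 CPM, against 8.09, 13.5 and 6.67 CPM in Control. With Tat-4OI the values were 48.5, 29.8 and 35.6 CPM, against 4.71, 3.68 and 6.48 CPM with Tat. With Tat-Cocaine-4OI they were 39.6, 25.1 and 32.3 CPM, against 7.79, 7.37 and 4.67 CPM with Tat-Cocaine. All 9 libraries with 4OI (25.1 to 68.6 CPM) were above the 39 others (2.08 to 16.2 CPM). Here too the gene was chosen for these levels, and the share of all genes that separate was not counted. The ratios of means were 6.81, 7.67 and 4.89, and the log2 differences 2.76, 2.82 and 2.21 (SE 0.318 each).

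**Figure D3:**
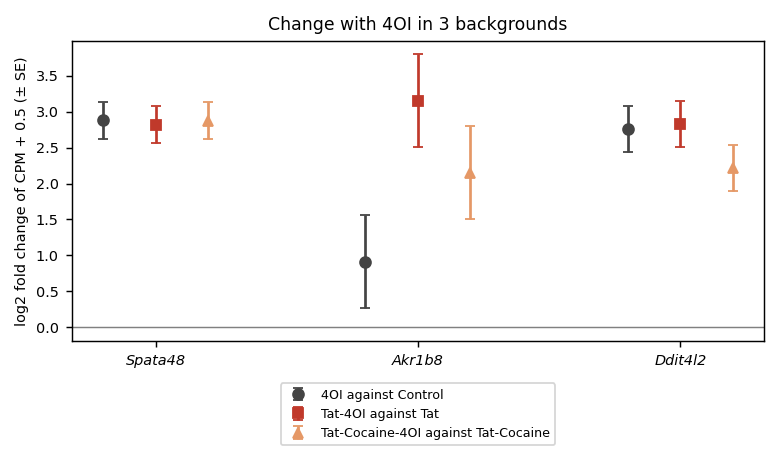
Log2 fold change of CPM + 0.5 with 4OI for the 3 genes in the cultures without Tat, with Tat and with Tat-Cocaine, with bars of 1 SE from the fit. Spata48 lies between 2.82 and 2.88 in all 3, and Akr1b8 runs from 0.91 to 3.15.

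Ranked by log2 difference among the 15890 genes tested, Spata48 was at place 4, 3 and 1 in the cultures without Tat, with Tat and with Tat-Cocaine. Akr1b8 was at place 103, 1 and 6, and Ddit4l2 at place 6, 2 and 4. Of all genes tested, 2.47%, 6.1% and 4.07% were higher with 4OI in these comparisons and 0.686%, 9.48% and 3.29% lower (limma, Benjamini-Hochberg FDR under 0.05). The comparisons chose the members, so nothing is read from their places.

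Ddit4l2 fell with Tat in the cultures given Amlexanox, Tazemetostat or Senicapoc, a comparison that holds no library with 4OI. In Amlexanox cultures the values were 7.06, 16.2 and 13.01 CPM without Tat and 3.12, 4.11 and 3.88 CPM with it. In Tazemetostat cultures they were 10.1, 7.94 and 5.81 CPM without Tat and 5.05, 4.28 and 4.11 CPM with it. In Senicapoc cultures they were 3.78, 13.5 and 4.15 CPM without Tat and 3.22, 3.36 and 3.15 CPM with it. Each Tat group lay wholly below its reference, though with Senicapoc the gap was only from 3.36 to 3.78 CPM. The share of all genes that separate in this way was not counted. Averaged over the 3 compounds, the log2 difference was -1.02 (SE 0.184, FDR 3.34e-05 in limma), from single differences of -1.51, -0.74 and -0.80. The -0.80 with Senicapoc rested largely on replicate 2 without Tat (13.5 CPM). The other Senicapoc libraries without Tat (3.78 and 4.15 CPM) were close to those with it. The averaged comparison called 51.8% of all genes, 23.7% as lower, so a call alone does not set Ddit4l2 apart.

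**Figure D4:**
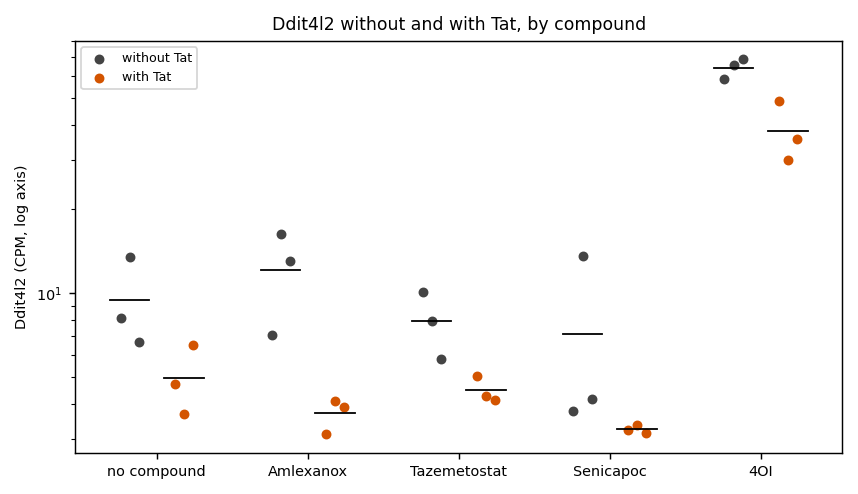
Ddit4l2 (CPM, log axis) in each library without and with Tat, by compound, with a line at each group mean. With Amlexanox, Tazemetostat or Senicapoc every Tat library is below every library without Tat.

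Akr1b8 did not pass the test in the same comparison (log2 -0.14, 95% interval -0.90 to 0.62, FDR 0.767). The same 18 libraries differed in cell markers, in a comparison that called 51.8% of all genes, 23.7% as lower. The counts of markers that follow stand beside those shares. Of 14 microglia and macrophage markers 9 rose and 1 fell with Tat, and their summed CPM went from 2016-3014 to 3013-3642 with Amlexanox, from 2862-3885 to 3761-7320 with Tazemetostat and from 1397-2635 to 2802-4192 with Senicapoc. Of 12 neuron markers 6 fell and none rose, with sums from 4164-5347 to 2353-3437, from 2833-3750 to 1508-3673 and from 4803-5060 to 4131-4973 for the same compounds. Of 9 astrocyte markers 2 rose and 4 fell, and their sum was lower without overlap in Tazemetostat cultures, from 11802-14325 to 6778-9085. Of 5 fibroblast and vessel markers tested 2 rose and 1 fell, and their sum was higher without overlap with Amlexanox (59.9-153 to 174-264) and Tazemetostat (82.1-163 to 167-266). None of 10 oligodendrocyte lineage markers passed the test, and of 3 germ cell markers tested 1 fell. Their part in the fall of Ddit4l2 was not tested. In cultures without a compound, Tat gave a log2 difference of -0.83 (SE 0.318, FDR 0.0572, and 0.0475 with the replicate number as a block) for Ddit4l2, which without the block missed the threshold in a comparison that called 21.3% of genes and shares libraries with the choice of the gene. The Tat effect on Ddit4l2 differed from that without a compound by -0.68 with Amlexanox (95% interval -1.59 to 0.23, FDR 0.449, 1.84% of genes called). The difference was 0.10 with Tazemetostat (-0.82 to 1.01) and 0.03 with Senicapoc (-0.88 to 0.95). No difference passed the threshold. The last 2 comparisons called 0% of genes, so a missing call there says nothing particular about Ddit4l2. Beside 4OI, Ddit4l2 was also lower with Tat (-0.77, SE 0.318, a description).

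Cocaine did not move Akr1b8 or Ddit4l2 past the threshold. Added to Tat in the cultures with the other compounds, it gave log2 differences of 0.03 for Akr1b8 (95% interval -0.73 to 0.79) and 0.03 for Ddit4l2 (-0.34 to 0.41), where 3.52% of genes were called. Akr1b8 had its lowest group mean with Cocaine alone, at 0.283, 0.213 and 0.121 CPM, below all Control libraries. This difference missed the threshold (log2 -0.87, SE 0.646, FDR 0.641) in a comparison that called 0.201% of genes. Cell markers differed too. Neuron sums were 4497, 1776 and 1566 with Cocaine, against 3177 to 4996 in Control. The oligodendrocyte lineage sum reached 25922 in Cocaine replicate 3, against 859 to 2175 in Control. Their part in the level of Akr1b8 was not tested. Tat-Cocaine against Tat gave 0.83 for Akr1b8 and 0.38 for Ddit4l2 (FDR 0.676 and 0.691), with 0.0189% of genes called.

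Averaged over the backgrounds, the other compounds gave no call for Akr1b8 or Ddit4l2 in the fit without a replicate block. The comparisons called 7.99% of genes for Amlexanox, 11.4% for Tazemetostat and 1.16% for Senicapoc, and share their reference libraries with the choice of the members. Ddit4l2 came nearest with Senicapoc (log2 -0.67, SE 0.184, FDR 0.0592), where the replicate block made it a call (FDR 0.0309), and under Tazemetostat its difference was -0.34 (FDR 0.192). Akr1b8 with Amlexanox alone held 0.376, 7.99 and 6.05 CPM, a spread wider than the Control values, and the log2 difference was 1.51 (SE 0.646, FDR 0.128, 11.4% of genes called). Without replicate 1 of Amlexanox it was 2.54 (FDR 0.00382), and with weights on the libraries 1.96 (FDR 0.0067), so the call depends on that library and on the weighting.

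Relatives of the members were compared in the same fit. Among 7 other aldo-keto reductases tested, of 16 in the table, Akr1b1, the aldose reductase and a neighbour of Akr1b8, rose with 4OI beside Tat (log2 0.75, SE 0.138, FDR 0.000251) and beside Tat-Cocaine (0.84, SE 0.138, FDR 0.000104). Without Tat its difference was 0.35 (FDR 0.207), and no other reductase was called in these comparisons. RefSeq lists 5 Akr1b8 pseudogenes and the neighbour Akr1b10, so reads of near-identical copies may be lost or moved, since only uniquely mapped reads were counted. Ddit4 did not pass the test with 4OI, at -0.38, -0.02 and -0.29 (SE 0.265, FDR 0.63, 0.972 and 0.575). It fell with Tat in the cultures with the other compounds (-0.38, SE 0.153, FDR 0.0392), as Ddit4l2 did.

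Neighbouring genes of Spata48 in RefSeq were read in the same way. Zpbp, which encodes a sperm protein that binds the egg coat, differed by -0.30, 0.43 and 0.14 with 4OI without Tat, with Tat and with Tat-Cocaine (FDR 0.632, 0.155 and 0.75). Ikzf1, a transcription factor of blood cells, fell with 4OI beside Tat (-1.63, SE 0.383, FDR 0.00337), where 9.48% of all genes were lower. Its values in the other backgrounds, and those of the neighbours Vwc2 and Fignl1, are not given here.

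Of 27 genes tested from a list of Nrf2 targets, which also held Nrf2 itself (Nfe2l2) and Keap1, 19, 18 and 21 rose with 4OI in the 3 backgrounds and none fell. Their median log2 differences were 0.93, 0.73 and 0.77, against medians of all genes within 0.01 of 0. The cystine carrier Slc7a11 rose by 3.85 without Tat (SE 0.305, FDR 2.96e-11), and Gclm, of glutathione synthesis, by 2.94 (SE 0.165, FDR 3.26e-15). Of 26 carbonyl enzymes without Akr1b8, 1, 3 and 5 rose and 0, 3 and 0 fell, beside 2.47%, 6.1% and 4.07% of all genes higher and 0.686%, 9.48% and 3.29% lower, with the carbonyl reductase Cbr3 up by 1.99, 1.92 and 1.59 (SE 0.193, FDR 3.99e-09, 9.26e-09 and 5.51e-07). Of 34 mTORC1 genes without Ddit4l2, a list of regulators that also held subunits and substrates of the complex, 2 rose in each background and 0, 2 and 1 fell. Of all genes, 2.47%, 6.1% and 4.07% were higher and 0.686%, 9.48% and 3.29% lower. The share that rose was near that of all genes beside Tat and Tat-Cocaine. Sesn3, a sestrin that restrains mTORC1, was 1 of the 2 that rose in each background, by 1.12, 1.13 and 1.05 (SE 0.200). Of 23 genes listed as targets of the stress factor ATF4, with Atf4 itself among them, 2, 2 and 1 rose and 0, 3 and 0 fell. The same shares of all genes apply, and 1 of 23 is near the 4.07% beside Tat-Cocaine.

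Over the 16 group means of log2(CPM + 0.5), which share the 4OI groups, the genes most like Ddit4l2 were Osgin1, Gstp1 and Pip4p2 (Pearson r 0.97, 0.97 and 0.96). For Spata48 they were Psmd5, Pgrmc1 and Xpo1 (0.97, 0.96 and 0.96), and for Akr1b8 Slc39a6, AABR07044631.2 and Stbd1 (0.92 each). Over the 39 libraries without 4OI the likeness was different, with Shmt2, Jade3 and RGD1308544 nearest to Spata48 (0.58, 0.52 and 0.49). Nearest to Akr1b8 were Copb1, Lif and Fam136a (0.83, 0.82 and 0.82), and nearest to Ddit4l2 were AY172581.2, Ndufa6 and Rxylt1 (0.87, 0.86 and 0.86). Between the members, r over those 39 libraries was 0.07 for Spata48 and Akr1b8, 0.01 for Spata48 and Ddit4l2 and 0.28 for Akr1b8 and Ddit4l2, with Spata48 at 1 to 14 reads. Over the 16 group means it was 0.74, 0.90 and 0.61. Over the 9 libraries with 4OI, a set added after the values were seen, it was 0.12, 0.01 and -0.91, and these libraries share 3 groups that differ in level. Nearest to Spata48 in that set were Ykt6, Tsc2 and Tead2 (0.95, 0.95 and 0.93). For Akr1b8 they were Msr1, Hnrnpa3 and Mcemp1 (0.987, 0.983 and 0.983), and for Ddit4l2 Rcn2, Fscn2 and Myorg (0.996, 0.994 and 0.991).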

How the data were processed

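RNA of 48 libraries was sequenced as 100-base read pairs from a directional kit. Per the study, reads were aligned with STAR and uniquely mapped reads counted with featureCounts. The submitters' processing notes give STAR 2.7.2, SAMtools 1.5 and Subread 1.5.3 and the builds mRatBN7.2 and hg38, whereas the study's methods name another rat build, so no gene position of the files is given. The deposited signal was CPM that the authors scaled by trimmed mean of M-values, as library sums from 930399 to 1046890 show. Its steps gave whole reads for 85.0% to 87.3% of values (within 0.02 of a whole number), too few for a count test. The authors' fold changes and p-values and 16 group mean columns were not used.

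Values were tested as log2(CPM + 0.5) with limma 3.58.1 (eBayes with a trend, R 4.3.3), 1 mean per group over all 48 libraries, for the 15890 genes that reached 0.5 CPM in 3 or more libraries, with Benjamini-Hochberg adjustment over all of them and a threshold of 0.05. This replaces the authors' edgeR count model. An exact permutation test of 3 against 3 libraries cannot go below 0.1 and was not used. The fit was tested on simulated data. The pass mark first set for that test was missed, with an assumed spread above that of these libraries, and the test was then repeated with the spread estimated from them and judged by the recovery of 4-fold changes.

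Genes named were the members, their relatives and neighbours, up to 4 genes a list with the largest called changes, and the 3 genes most like each member. Members and lists were chosen with earlier results of these data known. Alternatives were other pseudocounts, minimum levels, scalings, weights, a replicate block, fits to the compared groups and leaving out each library. Promoter sequences and neighbours came from RefSeq (GRCr8).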

Additional observations from a re-analysis of the deposited data

How the results depend on the processing

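The fall of Ddit4l2 with Tat averaged over the 3 compounds kept its direction and call under 11 other settings (log2 -1.13 to -0.92) and without any 1 of 18 libraries (-1.13 to -0.83). Ddit4l2 with Tat against Control became a call after rescaling all libraries to the same sum (-0.91, FDR 0.0349), with quantile normalization (-0.93, 0.0358) and with array weights (-1.15, 0.00315), and ranged over -1.04 to -0.56 without 1 library, with calls without Control replicate 3 (FDR 0.036) and Tat replicate 3 (FDR 0.0318). The replicate block also made it a call (-0.83, FDR 0.0475) and made one of Senicapoc averaged over 3 backgrounds (-0.67, FDR 0.0309), and it changed no other call. The labels share replicate numbers but do not say that they mark a shared culture, and in 8 of 23 pairs of groups all same-numbered libraries correlated above 0.1, so the numbers were not taken as pairs. Senicapoc for Ddit4l2 ranged over -0.85 to -0.57 without 1 library, with calls without Control replicate 3 (FDR 0.0445), Tat-Cocaine replicate 3 (0.0288) or Senicapoc replicate 2 (0.00481). Array weights, whose iteration stopped short of convergence, further called Ddit4l2 with Senicapoc (-1.02) and Tazemetostat (-0.42), Akr1b8 with Senicapoc (-0.89), and Akr1b8 with Amlexanox against Control (1.96, FDR 0.0067). For Spata48, too low to test without 4OI, the weights gave -0.24 for Tat and 0.26 for cocaine added to Tat in the averaged comparisons. These are values and not calls. The pseudocount moved the Spata48 differences with 4OI, to 4.04, 4.12 and 4.12 at 0.1 CPM and to 2.15 with Tat and 2.21 with Tat-Cocaine at 1 CPM.

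Small differences changed sign, none of them a call for Akr1b8 or Ddit4l2, and those of Spata48 given without a test. With array weights these were Spata48 with Tat against Control (0.072) and in the Tat effect with Tazemetostat minus that without (-0.25), Akr1b8 with cocaine added to Tat (-0.14), Tat against Control (-0.17) and the Tat effect with Senicapoc minus that without (0.40), and Ddit4l2 with cocaine added to Tat (-0.10) and Cocaine against Control (-0.25). Quantile normalization turned the Tat effect with Senicapoc minus that without for Ddit4l2 (-0.020). Leaving out 1 library gave, for Spata48, -0.19 to 0.086 (Tat against Control), -0.12 to 0.18 (Tat-Cocaine against Tat), -0.25 to 0.029 and -0.075 to 0.29 (Tat effect with Amlexanox and with Tazemetostat minus that without). For Akr1b8 it gave -0.48 to 0.11 (Tat averaged), -0.13 to 0.18 (cocaine added to Tat), -0.073 to 0.54 (Tat against Control) and -0.86 to 0.36 (Tat effect with Senicapoc minus that without). For Ddit4l2 it gave -0.031 to 0.11 (cocaine added to Tat), -0.12 to 0.36 (Cocaine against Control), -0.18 to 0.30 and -0.27 to 0.58 (Tat effect with Tazemetostat and with Senicapoc minus that without). The cause of these changes was not tested. Spata48 gave no value where a higher minimum level, or a fit to groups without 4OI, left it out. At 1 to 14 reads outside the 4OI cultures, differences of Spata48 among the other groups are limited by depth.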
